A study of Mus musculus with 36 samples.

Results

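The Notch receptors, ligands and target genes described here are 10 mouse genes out of the 45232 in each count table. They were taken by name, from a list chosen with earlier results of these data known. They are the receptors Notch1, Notch2 and Notch3, the ligands Jag1, Jag2 and Dll1, and the targets Hes1, Hey1, Heyl and Nrarp. Of these, 9 had enough counts to be tested, and Heyl was left out of the tests with 2 counts in all 36 libraries. Notch receptors are membrane proteins that are cut when a ligand on a neighbouring cell binds them, and the released intracellular domain enters the nucleus and switches on genes together with the DNA-binding protein RBPJ. Targets of the pathway include transcriptional repressors of the Hes and Hey families and Nrarp, a small protein that limits the activity of the intracellular domain. In the prostate, Notch signalling is known for its part in how basal and luminal epithelial cells are balanced.

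The samples were primary mouse prostate organoids, which are epithelial cells grown as small hollow or solid bodies in a gel. They carried a pCW construct with wild type FOXA1 (WT), Foxa1 FE255del (FE255del), Foxa1 R219S (R219S) or no FOXA1 insert (EV, whose genotype is labelled empty vehicle), and they were collected on day 0, 1 or 11, with 3 cultures in each of the 12 groups. FOXA1 is a forkhead transcription factor, and both variants lie in its DNA-binding forkhead domain. Doxycycline at 500 ng/mL induced FOXA1 fused through a 2A sequence to the red fluorescent protein DsRED, and the labels give that treatment for all groups, EV and day 0 included, while the deposited names of the day 0 tables mark them as grown without it. The 3 cultures of a construct were seeded from 1 population of sorted DsRED-positive cells and handled separately afterwards, so p-values measure the spread between such cultures. Neither the species of the inserted FOXA1 sequence nor the mouse strain and age is given in the sources used here.

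Libraries held 61476938 to 102385337 counts. Levels are given as CPM, which are counts scaled to the library total, after TMM scaling. Differences are log2 fold changes ± SE from edgeR's quasi-likelihood test, and "higher", "lower", "rose" and "fell" set a group against its comparison group, on the same day unless another is named, and mark a Benjamini-Hochberg adjusted p below 0.05 over the 18176 genes tested. Foxa1 itself averaged 414 ± 4.69 CPM in WT, 320.2 ± 27.1 in FE255del and 309 ± 5.11 in R219S organoids on day 1, against 227 ± 4.99 in EV organoids (SD, n = 3 each). It was higher than in EV in all 3 constructs on days 1 and 11 and in none of them on day 0. On day 0 all WT libraries (253, 259 and 258 CPM) still lay above all EV libraries (234, 227 and 237), at 0.14 ± 0.06 (edgeR adjusted p = 0.09). Foxa1 values may mix the mouse gene with whatever part of the insert aligned to it. Of 11 luminal genes, 10 averaged at least 1 CPM in every group, and Pbsn, a secretory product of the mouse prostate, had 0 counts in all of them. The 10 basal genes averaged at least 1 CPM in every group.

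Before any FOXA1 comparison, the members differed widely in level per kb of exon, with the annotated exons of a gene merged. In EV organoids on day 0, Hes1 had 46.6 ± 1.45 CPM per kb of exon (SD, n = 3), Jag2 17.9 ± 0.649, Nrarp 14.5 ± 0.410, Notch1 13.9 ± 0.314 and Jag1 13.3 ± 0.963. Notch3 had 8.85 ± 0.264, Notch2 7.99 ± 0.106, Dll1 3.70 ± 0.137 and Hey1 0.323 ± 0.0182 CPM per kb. Heyl, another Hey family repressor, had its 2 counts in 1 EV library of day 1, at 0.0297 CPM, and 0 in the other 35. For those 35, this allows at most 0.0293 to 0.0488 CPM per library (3 counts, counting error only). Hey1 stood on 22 to 412 counts per library, the fewest of the 9 tested members. The kit marks strand, but the setting used for counting is not given in the sources used here. Genes on the opposite strand overlap Notch1, Notch3, Dll1 and Nrarp, and held at most 288 counts in any group of 3 libraries. The overlap is largest for Nrarp, at 2051 of its 2582 exon bases, and a gene on the same strand shares 541 bases with Notch2. Low counts of the overlapping genes do not show whether reads of a member in shared bases went uncounted, which was not tested.

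Promoter sequences from RefSeq (GRCm38.p6, 250 bases before to 50 after a start site) matched 7 of the 10 members by symbol, with 8 promoters in all. Hes1, Hey1 and Heyl had no match and were not searched, so Nrarp was the only target gene among them and the rest were receptors and ligands. The sequences of Nrarp, Notch1 and Jag1 are shown because the results turn on them: Nrarp and Notch1 fell under all 3 FOXA1 constructs on day 1, and the difference of Jag1 from EV on day 11 had opposite signs between constructs. Capitals mark matches to the E box letters, read as CACGTG and in a second form as CACGCG, on either strand, that Hes and Hey repressors are known to bind.
Nrarp, chr2:25180508-25180807, plus strand: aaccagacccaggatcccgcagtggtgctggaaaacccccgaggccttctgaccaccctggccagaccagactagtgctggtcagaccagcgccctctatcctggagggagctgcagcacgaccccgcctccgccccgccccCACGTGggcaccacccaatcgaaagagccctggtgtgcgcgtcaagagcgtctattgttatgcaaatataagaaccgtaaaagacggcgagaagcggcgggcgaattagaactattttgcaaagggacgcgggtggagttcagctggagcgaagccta
Notch1, chr2:26503773-26504072, minus strand: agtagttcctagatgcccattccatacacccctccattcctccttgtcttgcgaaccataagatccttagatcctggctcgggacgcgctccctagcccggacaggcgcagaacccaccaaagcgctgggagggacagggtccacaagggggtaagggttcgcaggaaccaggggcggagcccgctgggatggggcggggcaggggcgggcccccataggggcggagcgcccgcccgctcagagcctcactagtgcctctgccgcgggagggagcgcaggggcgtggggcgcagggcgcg
Jag1, chr2:137116471-137116770, minus strand: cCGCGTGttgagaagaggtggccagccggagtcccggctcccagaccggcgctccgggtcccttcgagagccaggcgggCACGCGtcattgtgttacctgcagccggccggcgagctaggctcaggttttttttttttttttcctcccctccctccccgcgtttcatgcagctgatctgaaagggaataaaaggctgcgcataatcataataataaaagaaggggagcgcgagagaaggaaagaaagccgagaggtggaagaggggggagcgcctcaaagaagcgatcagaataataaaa
Nrarp holds 1 such match that begins 108 bases before the start site, Jag1 holds 2, and Notch1 holds none. E box letters stand in 5 of the 8 member promoters and in 15.4% of the 32851 promoters in the table. None of the 8 holds the RBPJ core letters TGGGAA (25.6% of all promoters do) or the forkhead letters, searched as TGTTTAC and in further forms as TGTTTGC and also as TATTTAC (11.2% hold at least 1 of these), on either strand. The E box was searched after the other letters had given no match. The member promoters were 55.7% to 86.0% G and C, against a median of 52.7% over all promoters. They held the letters CG 15 to 63 times, against a median of 7. Both E box forms contain CG, so the share over all promoters is not a matched background for them.

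Among the receptors on day 1, Notch1 fell under every FOXA1 construct and Notch3 fell with it, while Notch2 moved less. Notch1, the receptor with the highest level per kb in EV (chr2:26457903-26516663, minus strand, GRCm38), had 66.8, 76.2 and 64.0 CPM in the 3 WT libraries, 103, 105 and 103 in FE255del and 106, 94.9 and 95.4 in R219S, against 212, 218 and 206 in EV. No construct library reached an EV library, and the WT libraries lay below those of both variants. The log2 fold change against EV was -1.62 ± 0.07 for WT (edgeR adjusted p = 1.3e-18), -1.03 ± 0.07 for FE255del and -1.11 ± 0.07 for R219S. This left Notch1 at 0.325, 0.488 and 0.465 times its EV level. In these bulk samples, fewer cells that express a gene and less RNA of it per cell cannot be told apart.

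Notch3 (chr17:32120820-32166852, minus strand), a receptor best known from vascular mural cells, had 32.7, 37.0 and 30.9 CPM in WT, 53.9, 54.8 and 59.7 in FE255del and 52.1, 48.9 and 47.6 in R219S on day 1, against 80.8, 78.2 and 80.2 in EV. Its groups did not overlap, with WT lowest and EV highest. The log2 fold changes were -1.25 ± 0.07, -0.51 ± 0.07 and -0.69 ± 0.07 for WT, FE255del and R219S (edgeR adjusted p at most 5e-07). The 8 mural cell genes summed to 5.26 to 5.99 CPM in WT, 0.899 to 1.84 in FE255del and 5.16 to 5.84 in R219S on day 1, against 1.13 to 2.14 in EV, and Pdgfrb, the mural growth factor receptor, averaged 0.0249 CPM in WT and 0.0194 CPM in EV. On day 11 the same genes summed to 27.7 to 30.0 CPM in WT, 8.36 to 14.2 in FE255del and 27.1 to 33.5 in R219S, against 6.32 to 11.6 in EV, of which Acta2 alone averaged 30.0 CPM in R219S and 8.70 in EV, while Pdgfrb averaged 0.00920 in R219S and 0.0302 in EV. The part of mural cells in the Notch3 values was not tested. Notch2 (chr3:98013527-98150361, plus strand) averaged 70.0 ± 2.93 CPM in WT, 55.7 ± 4.53 in FE255del and 81.6 ± 2.15 in R219S on day 1, against 83.0 ± 4.63 in EV. It fell in FE255del (log2 fold change -0.57 ± 0.09) and did not pass the test in R219S (-0.02 ± 0.08, adjusted p = 0.85). Its fall in WT (-0.24 ± 0.08, edgeR adjusted p = 0.014) was lost without EV replicate 1 (adjusted p = 0.056), without WT replicate 3 (0.067), with no filter on low counts (0.082) and with total-count scaling (0.18).

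**Figure D1:**
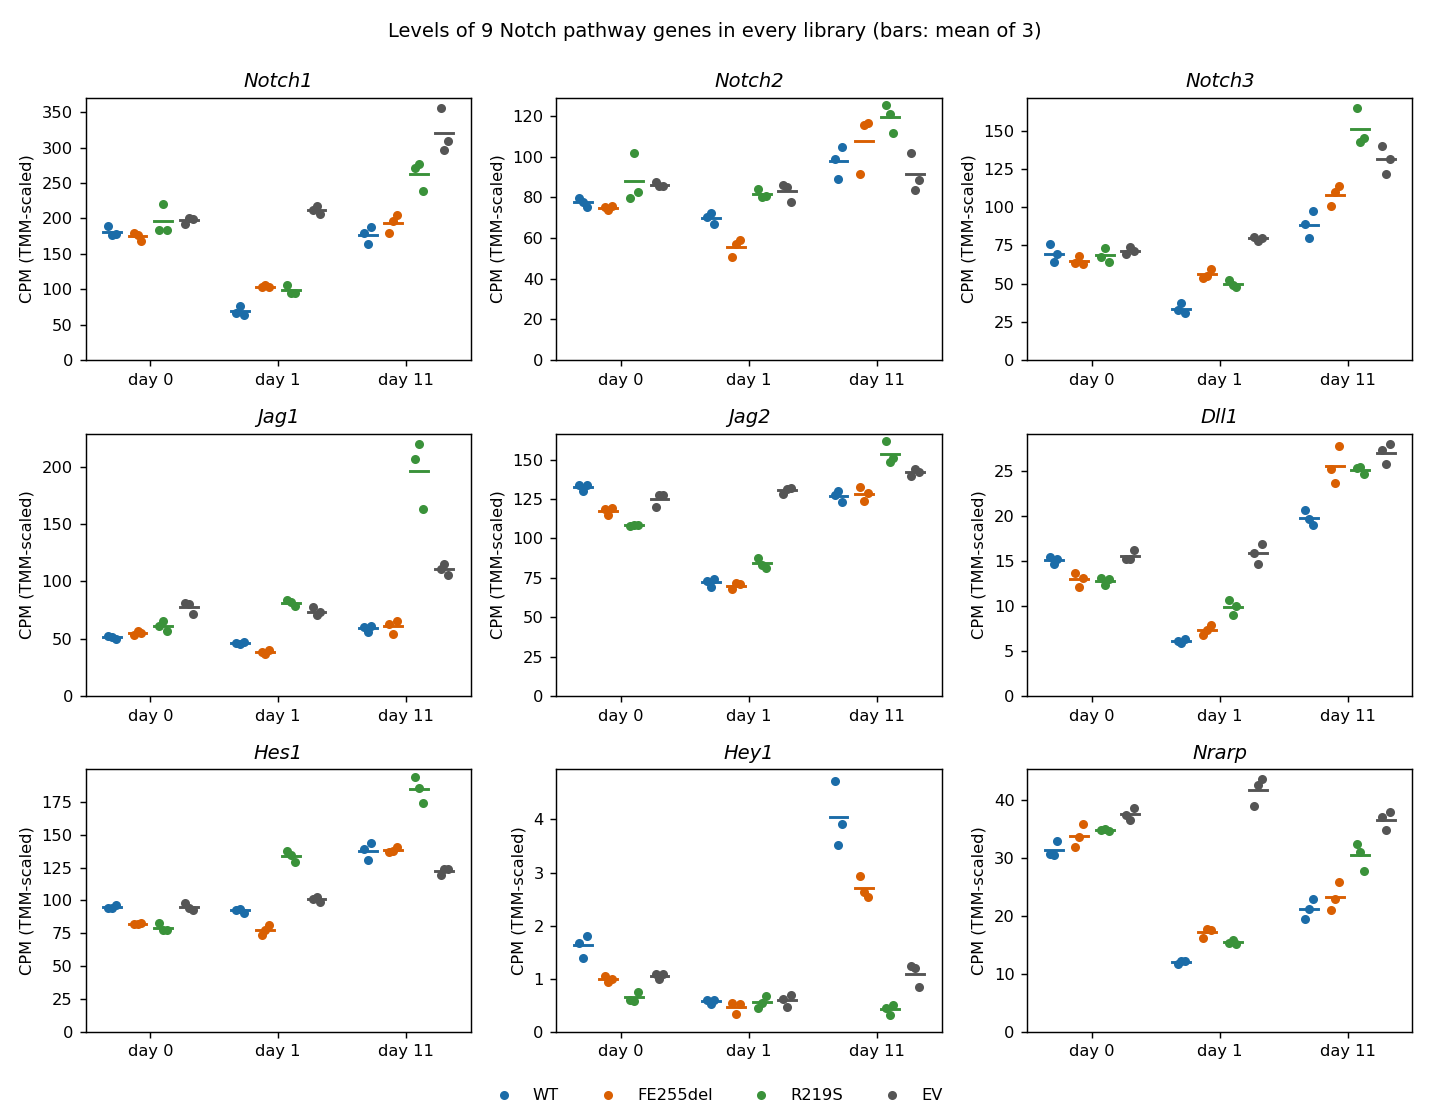
TMM-scaled CPM of the 9 tested members in every library (points, 3 per group) with the group mean (bars), by day, with WT, FE255del, R219S and EV from left to right within each day and each vertical axis starting at 0. On day 1 the points of Notch1, Notch3, Jag2, Dll1 and Nrarp lie below those of EV in all 3 constructs, and on day 11 the R219S points of Jag1 and Hes1 lie above all others of their gene.

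Of the ligands, Jag2 and Dll1 were lower than EV under all 3 constructs on day 1, and Jag1 was lower in WT and in FE255del, as it already was on day 0. Jag2 (chr12:112907819-112929776, minus strand), a ligand of the Serrate type, had 72.9, 69.5 and 74.2 CPM in WT, 67.8, 71.4 and 70.9 in FE255del and 87.8, 83.2 and 81.5 in R219S, against 128, 132 and 132 in EV. All construct libraries lay below all EV libraries, at log2 fold changes of -0.85 ± 0.04, -0.90 ± 0.04 and -0.63 ± 0.04 for WT, FE255del and R219S. Dll1 (chr17:15367354-15376872, minus strand), a ligand of the Delta type, averaged 6.11 ± 0.207 CPM in WT, 7.35 ± 0.526 in FE255del and 9.93 ± 0.842 in R219S, against 15.9 ± 1.11 in EV (SD, n = 3 each). Its groups were separate from each other, and its log2 fold changes were -1.38 ± 0.07, -1.11 ± 0.07 and -0.68 ± 0.07. Both Jag2 and Dll1 passed the edgeR test in each construct at an adjusted p of 1.9e-10 or less.

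Jag1 (chr2:137081456-137116644, minus strand), the other Serrate-type ligand, had 46.5, 45.1 and 46.8 CPM in WT, 38.4, 36.5 and 39.8 in FE255del and 83.7, 81.8 and 78.6 in R219S on day 1, against 77.3, 70.4 and 73.2 in EV. Here the WT and FE255del libraries lay below EV, while all R219S libraries lay above all EV libraries. The log2 fold change was -0.67 ± 0.08 in WT and -0.95 ± 0.08 in FE255del, and in R219S it was 0.14 ± 0.08 and did not pass the test (edgeR adjusted p = 0.12). Against its day 0 level and beside EV, Jag1 in WT had changed by -0.08 ± 0.11 (adjusted p = 0.62), which did not pass the test. The R219S difference passed when only the 2 groups were fitted (adjusted p = 0.00034) and with total-count scaling (0.028).

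Of the targets, Nrarp fell most among the 9 members on day 1 in all 3 constructs, whereas Hes1 was lower than EV in FE255del and higher in R219S. Nrarp (chr2:25180758-25183339, plus strand) had 11.6, 12.2 and 12.1 CPM in WT, 16.2, 17.6 and 17.6 in FE255del and 15.3, 15.8 and 15.1 in R219S, against 38.9, 42.5 and 43.6 in EV. The 4 groups did not overlap, and the log2 fold changes of -1.80 ± 0.07, -1.28 ± 0.07 and -1.43 ± 0.07 for WT, FE255del and R219S put Nrarp at 0.287, 0.412 and 0.37 times its EV level. Hes1 (chr16:30064384-30067796, plus strand), a repressor of the Hes family, had 93.0, 93.8 and 90.4 CPM in WT, 73.3, 77.7 and 81.3 in FE255del and 137, 135 and 129 in R219S, against 101, 103 and 98.4 in EV. R219S libraries were the highest and FE255del libraries the lowest, and neither range overlapped that of EV. Hes1 differed from EV by 0.41 ± 0.04 in R219S (edgeR adjusted p = 2e-10) and by -0.38 ± 0.04 in FE255del (7.3e-10). In FE255del Hes1 was already lower than EV on day 0 (-0.21 ± 0.04), and its change since then beside EV was -0.17 ± 0.06 (adjusted p = 0.016), or -0.06 (0.48) with total-count scaling. For WT the difference was -0.13 ± 0.04 (adjusted p = 0.0074), and the call was lost with DESeq2 (0.054), RLE scaling (0.059), no low-count filter (0.11), only the 2 groups (0.14) and total-count scaling (0.94). Hey1 (chr3:8663359-8667256, minus strand) averaged 0.573 ± 0.0485 CPM in WT, 0.467 ± 0.108 in FE255del and 0.556 ± 0.116 in R219S on day 1, against 0.591 ± 0.107 in EV, and passed the test in none of them (adjusted p = 0.88, 0.2 and 0.78).

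Counted over the 9 tested members on day 1, WT had 0 higher and 8 lower than EV, where 29.6% of all tested genes were higher and 30.9% lower. FE255del also had 0 higher and 8 lower, against a background of 25.5% higher and 27.7% lower. R219S had 1 higher and 5 lower, against 23.2% and 25.3%. The median log2 fold change over the 9 was -0.85 in WT, -0.90 in FE255del and -0.63 in R219S, where the median of all tested genes was -0.01, -0.03 and -0.04. The 3 constructs share their EV libraries in these comparisons. With total-count scaling in place of TMM, the median of all genes moved up by 0.117 on the log2 scale for WT on day 1, and the share of calls that were higher was 60.8% for WT and 61.0% for FE255del, where it was 49.0% and 48.0% with TMM. The direction of every member called on day 1 was the same under both scalings. With total-count scaling, however, the WT calls of Hes1 (-0.004, edgeR adjusted p = 0.94) and Notch2 (-0.12, 0.18) were lost, and Jag1 in R219S gained a call (0.20, 0.028).

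**Figure D2:**
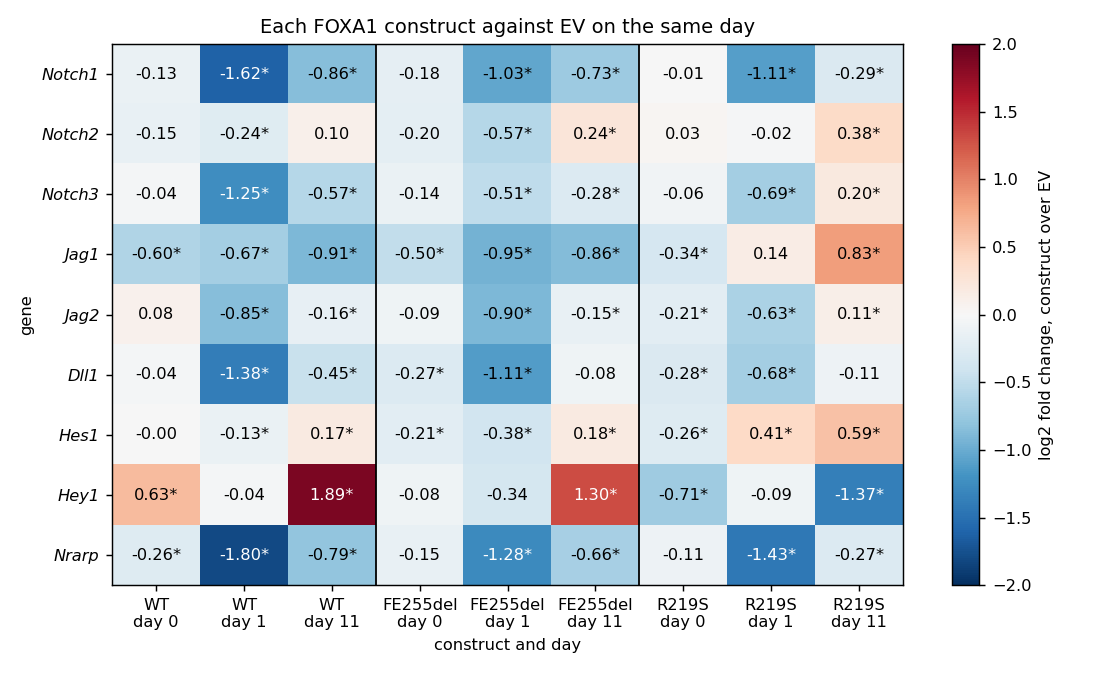
Log2 fold change of each tested member (rows) in each FOXA1 construct over EV on the same day (columns, by construct and then by day), with red for higher and blue for lower and a star for an adjusted p below 0.05. Nrarp has the lowest value of each day 1 column, and Jag1 and Hey1 on day 11 have opposite signs in R219S (0.83 and -1.37) from those in WT (-0.91 and 1.89) and FE255del (-0.86 and 1.30).

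By day 11 the members had parted. Notch1 and Nrarp were still lower than EV in all 3 constructs, with smaller log2 differences than on day 1, while Hes1 was higher in all 3, and Jag1 and Hey1 differed in opposite directions between R219S and the other constructs. Notch1 had 179, 163 and 189 CPM in WT, 179, 196 and 205 in FE255del and 271, 276 and 239 in R219S, against 356, 296 and 309 in EV, and no construct library reached an EV library. Its log2 fold changes were -0.86 ± 0.07, -0.73 ± 0.07 and -0.29 ± 0.07 for WT, FE255del and R219S. Nrarp averaged 21.2 ± 1.73 CPM in WT, 23.2 ± 2.44 in FE255del and 30.4 ± 2.46 in R219S, against 36.6 ± 1.56 in EV, at log2 fold changes of -0.79 ± 0.07, -0.66 ± 0.07 and -0.27 ± 0.07. The R219S calls of both genes were the weakest of the 3 constructs (edgeR adjusted p = 0.0019 for Notch1 and 0.0015 for Nrarp).

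Jag1 on day 11 had 60.5, 55.7 and 61.1 CPM in WT, 63.0, 54.4 and 65.4 in FE255del and 207, 220.0 and 163 in R219S, against 111, 115 and 106 in EV. All R219S libraries lay above EV, and all WT and FE255del libraries lay below it. The log2 fold change was 0.83 ± 0.07 in R219S (edgeR adjusted p = 1.1e-10), -0.91 ± 0.08 in WT (1.5e-11) and -0.86 ± 0.08 in FE255del (4e-11). Hey1 had 4.72, 3.52 and 3.92 CPM in WT, 2.94, 2.64 and 2.54 in FE255del and 0.455, 0.317 and 0.497 in R219S, against 1.25, 1.20 and 0.845 in EV. Its 4 groups were separate, with WT highest and R219S lowest, and WT stood at 3.7 times and R219S at 0.386 times the EV level. The log2 fold changes of Hey1 were 1.89 ± 0.18 in WT, 1.30 ± 0.18 in FE255del and -1.37 ± 0.21 in R219S (edgeR adjusted p = 2.5e-06).

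Hes1 on day 11 had 139, 131 and 143 CPM in WT, 137, 137 and 141 in FE255del and 194, 186 and 174 in R219S, against 119.5, 124 and 124 in EV, so that every construct library was above every EV library. The rise was 0.59 ± 0.04 on the log2 scale in R219S, 0.17 ± 0.04 in WT and 0.18 ± 0.04 in FE255del. Notch3 was lower in WT (-0.57 ± 0.07) and FE255del (-0.28 ± 0.07), and in R219S it was higher by 0.20 ± 0.07 (edgeR adjusted p = 0.029), a call lost without EV replicate 2 (0.17), EV replicate 3 (0.083) or R219S replicate 1 (0.21), with no filter (0.075), with only the 2 groups (0.068) and with total-count scaling (0.08). Jag2 was lower in WT (-0.16 ± 0.04) and FE255del (-0.15 ± 0.04), and its rise in R219S (0.11 ± 0.04, adjusted p = 0.018) was lost without EV replicate 1 (0.066), EV replicate 3 (0.081) or R219S replicate 1 (0.17) and under the same 3 other settings. Dll1 was lower in WT (-0.45 ± 0.07) and was not called in the variants, with adjusted p = 0.35 in FE255del and 0.23 in R219S. Notch2 was higher in R219S (0.38 ± 0.08), was not called in WT (0.10 ± 0.08), and in FE255del its rise (0.24 ± 0.08, adjusted p = 0.022) was lost without EV replicate 2 (0.14), EV replicate 3 (0.084), FE255del replicate 2 (0.13) or FE255del replicate 3 (0.13), with no filter (0.057) and with only the 2 groups (0.13).

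On day 11, WT had 2 members higher and 6 lower than EV, against 21.0% and 19.7% of all tested genes. FE255del had 3 higher and 5 lower, against 22.6% and 19.6%. R219S had 5 higher and 3 lower, against 17.7% and 14.4%, and with total-count scaling 42.6% of its calls over all genes were higher, where TMM gave 55.2%. The medians over the 9 members were -0.45 in WT, -0.15 in FE255del and 0.12 in R219S.

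Some members differed between the lines already on day 0, when Foxa1 did not pass the test against EV. Jag1 had 52.8, 51.5 and 49.6 CPM in WT, 53.0, 56.9 and 54.9 in FE255del and 61.3, 65.7 and 56.8 in R219S on day 0, against 81.6, 80.0 and 71.2 in EV. All construct libraries lay below all EV libraries, at log2 fold changes of -0.60 ± 0.08, -0.50 ± 0.08 and -0.34 ± 0.08 for WT, FE255del and R219S. Hey1 had 1.68, 1.39 and 1.81 CPM in WT and 0.608, 0.583 and 0.756 in R219S, against 1.08, 0.988 and 1.10 in EV, on both sides of the EV range. Its difference was 0.63 ± 0.19 in WT, a call lost without EV replicate 2 (edgeR adjusted p = 0.056) or WT replicate 3 (0.07), and -0.71 ± 0.20 in R219S, lost without R219S replicate 2 (0.07). Nrarp was lower in WT (-0.26 ± 0.07), Hes1 and Dll1 were lower in FE255del (-0.21 ± 0.04 and -0.27 ± 0.07) and in R219S (-0.26 ± 0.04 and -0.28 ± 0.07), and Jag2 was lower in R219S (-0.21 ± 0.04). None of the 3 receptors passed the test on day 0 with the main settings. With only the 2 groups fitted, Notch1 (edgeR adjusted p = 0.00045), Notch2 (0.00015) and Notch3 (0.0097) were lower in FE255del. So were Notch1 (0.012) and Notch2 (0.0042) in WT. Total-count scaling also gave calls for Notch1 (0.027) and Notch2 (0.044) in FE255del, and the stricter filter for Notch1 (0.041). With the main settings, WT had 1 member higher and 2 lower (background 9.90% and 12.8%), FE255del 0 higher and 3 lower (11.1% and 9.72%) and R219S 0 higher and 5 lower (13.2% and 6.92%). With total-count scaling the share of R219S calls that were higher was 47.2%, where TMM gave 65.6%. Replicate 2 of R219S on day 0 stood apart for the receptors: Notch1 had 184, 220.4 and 184 CPM and Notch2 79.8, 102 and 82.8 CPM in replicates 1, 2 and 3.

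Setting the change since day 0 beside that of EV takes the day 0 differences into account. For Notch1, the log2 change of WT less that of EV was -1.50 ± 0.10 by day 1 and -0.73 ± 0.10 by day 11, that of FE255del was -0.86 ± 0.10 and -0.55 ± 0.10, and that of R219S was -1.09 ± 0.10 and -0.28 ± 0.10. For Jag1 this value in WT was -0.08 ± 0.11 by day 1, which did not pass the test (edgeR adjusted p = 0.62). In R219S the Jag1 value was 0.48 ± 0.11 by day 1 (adjusted p = 0.00044) and 1.17 ± 0.11 by day 11 (4.6e-10). Hey1 stood 1.26 ± 0.26 higher by this measure in WT and 1.38 ± 0.27 higher in FE255del by day 11, while in R219S it was -0.67 ± 0.29 and did not pass the test (adjusted p = 0.092). By day 1, WT had 0 members higher and 5 lower by this measure (background 20.2% and 23.8%), FE255del 0 and 8 (17.4% and 22.9%) and R219S 2 and 5 (16.1% and 23.3%). By day 11, WT had 2 higher and 6 lower (10.9% and 10.5%), FE255del 3 and 3 (9.44% and 11.1%) and R219S 4 and 1 (12.4% and 14.7%). With total-count scaling the share of day 1 calls that were higher was 57.6% for WT, 59.5% for FE255del and 54.9% for R219S, where TMM gave 45.9%, 43.1% and 40.9%.

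Several of these calls were lost without a single library or under another setting. Notch1 in R219S by day 11 lost its call without R219S day 0 replicate 2 (edgeR adjusted p = 0.18), the library with high receptor values, and also without EV day 0 replicate 1 (0.089), 2 (0.058) or 3 (0.058), EV day 11 replicate 1 (0.17) or R219S day 11 replicate 3 (0.14). Notch2 in R219S by day 11 lost its call without EV day 0 replicate 1 (0.058), EV day 11 replicate 2 (0.095) or 3 (0.058), R219S day 0 replicate 1 (0.094) or 3 (0.085), or R219S day 11 replicate 1 (0.078) or 2 (0.057). Jag1 in WT by day 11 lost it without EV day 0 replicate 3 (0.13), EV day 11 replicate 1 (0.058) or 2 (0.091), WT day 0 replicate 1 (0.09) or 2 (0.065), or WT day 11 replicate 1 (0.058) or 2 (0.1). Hes1 in WT by day 11 lost it without EV day 0 replicate 1 (0.09), EV day 11 replicate 1 (0.066), WT day 0 replicate 1 (0.063) or 2 (0.053), or WT day 11 replicate 3 (0.083). In FE255del, Jag1 by day 11 lost it without EV day 0 replicate 3 (0.053) or FE255del day 11 replicate 2 (0.055), and by day 1 Hes1 (0.18) and Notch2 (0.087) lost it without FE255del day 1 replicate 1. Other settings also ended calls. Hes1 in FE255del by day 1 was lost with DESeq2 (adjusted p = 0.061), RLE scaling (0.068), no filter (0.11), only the groups compared (0.1) and total-count scaling (0.48). Notch2 in FE255del by day 1 was lost with no filter (0.061) and total-count scaling (0.065). Notch1 in R219S by day 11 was lost with DESeq2 (0.056), RLE scaling (0.068), no filter (0.11) and only the groups compared (0.16). Notch2 in R219S by day 11 was lost with no filter (0.071) and only the groups compared (0.059), and in WT by day 11 both Jag1 (0.097) and Hes1 (0.064) with no filter. Calls were also gained. Notch3 in R219S by day 11 (0.27 ± 0.10, edgeR adjusted p = 0.053) gained one under 9 of 19 settings. These included DESeq2 (0.031), RLE scaling (0.039), total-count scaling (0.039) and the stricter filter (0.025). Hey1 in WT by day 1 (-0.67 ± 0.29, edgeR adjusted p = 0.055) gained one under 3 of 18.

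The variants were then compared with WT FOXA1 directly. On day 1, R219S had 8 of the 9 members higher than WT and 0 lower (background 30.5% and 29.1%), with Jag1 at 0.82 ± 0.08, Dll1 at 0.70 ± 0.07 and Hes1 at 0.53 ± 0.04 on the log2 scale. Notch1, Notch3 and Nrarp, which were lower than EV in both, were less so in R219S than in WT, by 0.52 ± 0.07, 0.56 ± 0.07 and 0.36 ± 0.07. The Notch2 difference of R219S (0.22 ± 0.08) was lost without R219S replicate 1 (edgeR adjusted p = 0.084), WT replicate 1 (0.053) or WT replicate 3 (0.1), with no filter (0.083) and with total-count scaling (0.099). FE255del had 4 members higher than WT on day 1 and 3 lower (21.8% and 19.9%). Those higher were Notch1 (0.59 ± 0.07), Notch3 (0.74 ± 0.07), Dll1 (0.26 ± 0.07) and Nrarp (0.52 ± 0.07), and those lower were Notch2, Jag1 and Hes1. The log2 difference of Foxa1 itself from WT was -0.37 ± 0.06 in FE255del and -0.42 ± 0.06 in R219S on that day, and its part in these differences was not tested.

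On day 11, R219S had 9 and FE255del 3 members that differed from WT. R219S had 8 higher and 1 lower (background 24.8% and 24.1%), and with total-count scaling 36.7% of its calls over all genes were higher, where TMM gave 50.7%. Jag1 was 3.33 times its WT level (1.73 ± 0.08) and Hey1 0.104 times (-3.26 ± 0.20, edgeR adjusted p = 1.6e-15), with no overlap between the libraries of R219S and WT for either gene. FE255del had 2 higher and 1 lower (9.75% and 7.92%). Dll1 (0.37 ± 0.07) and Notch3 (0.29 ± 0.07) were the higher ones, and the call of Notch3 was lost without WT replicate 2 (adjusted p = 0.054). Hey1 was lower (-0.59 ± 0.17), a call lost without WT replicate 1 (0.12), FE255del replicate 2 (0.053) or FE255del replicate 3 (0.065). For Jag1, Hes1 and Jag2 on day 11 the FE255del values differed from WT by 0.04 ± 0.08, 0.01 ± 0.04 and 0.02 ± 0.04, and none passed the test. On day 0, FE255del had 0 higher and 4 lower than WT (15.7% and 11.2%) and R219S 1 and 4 (23.8% and 16.0%), the lower 4 being Jag2, Dll1, Hes1 and Hey1 in both. Dll1 in FE255del lost its call without FE255del replicate 2 (edgeR adjusted p = 0.097) or WT replicate 1 (0.055), and Jag1, the higher one in R219S, without R219S replicate 2 (0.06), with no filter (0.053) and with total-count scaling (0.051). The log2 difference of Foxa1 on that day was -0.17 ± 0.06 in R219S against WT (adjusted p = 0.026) and -0.14 ± 0.06 in FE255del against WT (0.086, not called), and its part in these differences was not tested. With total-count scaling the share of day 0 calls that were higher was 44.9% for FE255del and 43.4% for R219S, where TMM gave 58.3% and 59.7%.

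**Figure D3:**
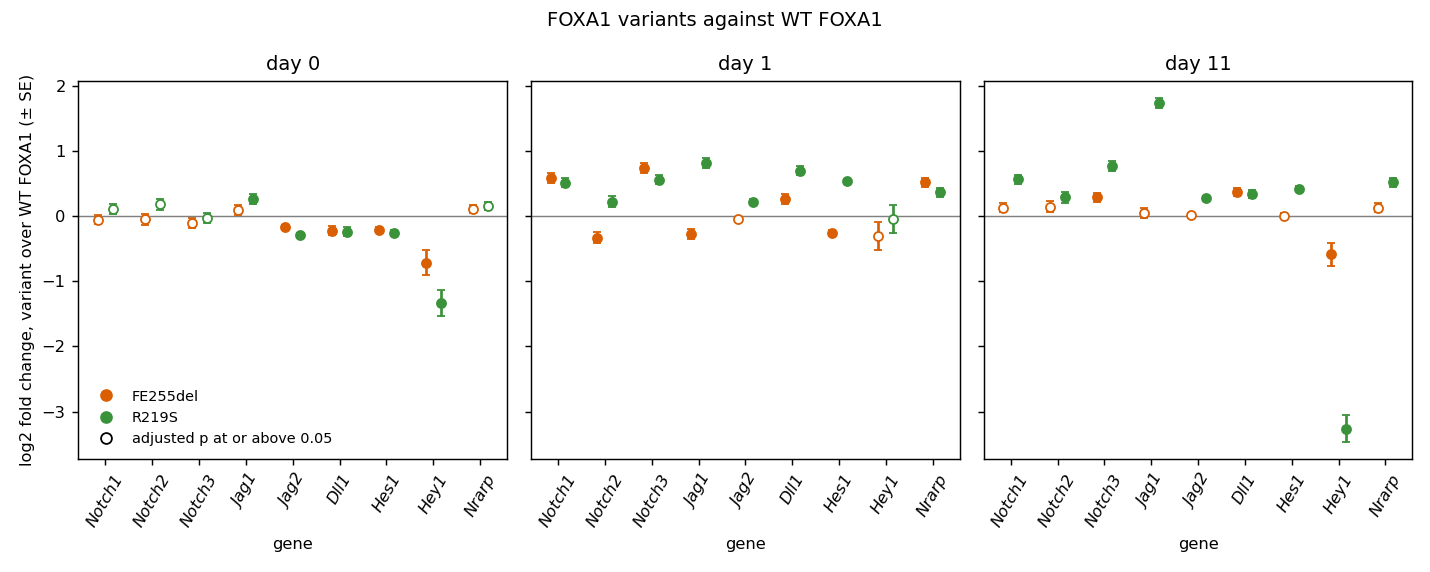
Log2 fold change ± SE of each tested member in FE255del (orange) and R219S (green) over WT FOXA1 on days 0, 1 and 11, with open circles where the adjusted p was at or above 0.05. R219S is above 0 for 8 members on days 1 and 11, and Hey1 reaches -3.26 on day 11.

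EV organoids show how the members moved without a FOXA1 insert. Between day 0 and day 1 only Hey1 was called, at 0.611, 0.475 and 0.686 CPM on day 1, against 1.08, 0.988 and 1.10 CPM on day 0, a difference of -0.84 ± 0.21 (edgeR adjusted p = 0.029). The 0 higher and 1 lower compare with 0.259% and 1.17% of all genes. That call was lost without each single library of both groups save EV day 1 replicate 3, at adjusted p = 0.11, 0.07 and 0.085 without day 0 replicates 1, 2 and 3, and 0.087 and 0.2 without day 1 replicates 1 and 2. By day 11, 6 members were higher than on day 0 and 0 lower (background 23.1% and 24.6%). Notch3 averaged 131 ± 9.06 CPM on day 11 and 71.6 ± 2.14 on day 0, Dll1 27.1 ± 1.19 and 15.6 ± 0.577, and Notch1 320.2 ± 31.4 and 198 ± 4.47 (SD, n = 3 each). Their log2 rises were 0.87 ± 0.07, 0.80 ± 0.07 and 0.69 ± 0.07, and Jag1 (0.51 ± 0.08), Hes1 (0.36 ± 0.04) and Jag2 (0.18 ± 0.04) rose with them. Nrarp did not pass the test, at 37.0, 34.8 and 37.9 CPM on day 11, against 37.4, 36.5 and 38.6 on day 0. In WT, Notch1 averaged 181 CPM on day 0, 69.0 on day 1 and 177 on day 11, with the libraries of days 0 and 11 overlapping.

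Over all 12 groups, Hey1 had the widest range of group means, from 0.423 CPM in R219S on day 11 to 4.06 CPM in WT on day 11, a ratio of 9.59. Jag1 followed with 5.15, then Notch1 with 4.64, Notch3 with 4.50 and Dll1 with 4.43, while Nrarp spanned 3.48, Hes1 2.38, Jag2 2.20 and Notch2 2.14. The lowest group was WT on day 1 for Notch1, Notch3, Dll1 and Nrarp, and FE255del on day 1 for Notch2, Jag1, Jag2 and Hes1. The highest was R219S on day 11 for Notch2, Notch3, Jag1, Jag2 and Hes1. In the order of the group means of Notch1, EV and R219S of day 11 and EV of day 1 came first, each apart from the next. Then came 6 groups from EV of day 0 to FE255del of day 0 that each overlapped their neighbour. FE255del and R219S of day 1, which overlapped, followed above WT of day 1. Only neighbours were compared, and R219S of day 0 (183.5 to 220.4 CPM), inside the 6, did overlap EV of day 1 (206.4 to 217.6). Of the 11 neighbouring pairs in each order, 6 overlapped for Notch1, 8 for Notch2, 4 for Notch3, 5 for Jag1, Jag2, Dll1 and Hes1, 7 for Hey1 and 6 for Nrarp.

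The make-up of the receptor and ligand pools was taken from CPM per kb of exon. The receptors summed were Notch1, Notch2 and Notch3, and the ligands Jag1, Jag2 and Dll1. Other ligands, such as Dll4, were left out. Notch1 made up 31.3% ± 0.750 of the receptors' level in WT, 37.6% ± 1.48 in FE255del and 33.6% ± 0.588 in R219S on day 1, against 45.9% ± 0.593 in EV (SD, n = 3 each). By this measure Notch2 held the largest share in WT, at 42.0% ± 1.37, and in R219S, at 36.7% ± 0.644, against 23.7% ± 0.802 in EV. In FE255del it was 26.6% ± 1.18 and Notch3 had 35.8% ± 0.994. The order of Notch1 and Notch2 depends on the merged exon lengths used, 14232 and 10782 bases. In CPM not divided by length, Notch1 averaged 98.6 and Notch2 81.6 in R219S on day 1, and 69.0 and 70.0 in WT. By day 11 the Notch1 share was 38.3% ± 0.472 in WT, 36.8% ± 0.636 in FE255del and 38.2% ± 1.71 in R219S, against 47.6% ± 0.632 in EV. On day 0 it averaged 44.6% to 45.3% in the 4 lines. Among the ligands on day 11, Jag1 made up 30.7% ± 1.53 in WT, 29.9% ± 1.22 in FE255del and 54.4% ± 3.78 in R219S, against 41.5% ± 1.20 in EV, and Jag2 55.1% ± 1.46, 52.8% ± 1.74 and 35.9% ± 3.13, against 44.5% ± 0.558. These shares are descriptions of RNA level, and a rise of one share lowers the others.

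**Figure D4:**
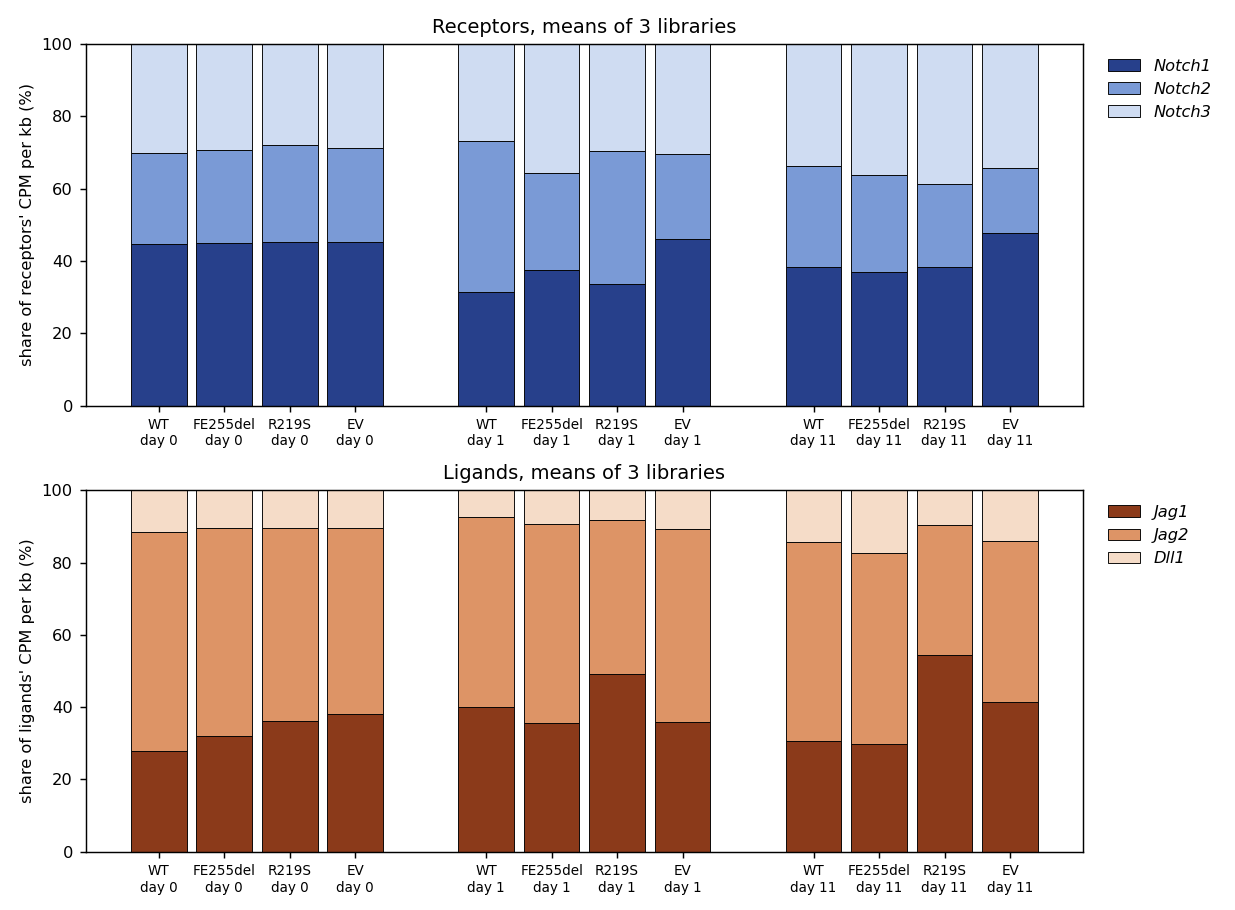
Share of the summed CPM per kb of exon held by each receptor (top) and each ligand (bottom), as means of 3 libraries, with WT, FE255del, R219S and EV from left to right within days 0, 1 and 11. The Notch1 share is below that of EV in all 3 constructs on days 1 and 11, and Jag1 holds 54.4% of the sum of Jag1, Jag2 and Dll1 in R219S on day 11.

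Across the 12 group means of log2 CPM, likeness is given as Pearson r with no test, since groups share constructs, days and sequencing. Notch1 had r = 0.926 with Jag2, 0.905 with Dll1, 0.904 with Notch3 and 0.871 with Nrarp, and Dll1 had 0.946 with Notch3. Nrarp had -0.059 with Hes1 and 0.085 with Hey1. Among 11188 genes that averaged 2 CPM or more over all libraries, those most like Notch1 were Hspa1b (0.984), Keap1 (0.981) and Irak2 (0.979), and those most like Nrarp were Duoxa1 (0.99), Ppl (0.985) and Tmie (0.979). The closest gene was Hps6 for Jag1 (0.977), Arhgef10 for Jag2 (0.978), Ephb6 for Dll1 (0.977), Amot for Hey1 (0.956), Ugt2b34 for Hes1 (0.973), Higd2a for Notch3 (0.971) and Numa1 for Notch2 (0.943).

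Among the rest of the pathway, counts for FE255del and R219S on day 1 lay near the shares over all genes. Of 52 other pathway genes tested, on day 1 WT had 25 higher and 18 lower than EV, FE255del 17 and 15, and R219S 16 and 16. Over all genes the shares higher and lower were 29.6% and 30.9% for WT, 25.5% and 27.7% for FE255del and 23.2% and 25.3% for R219S, and they are the background of every list count of day 1 that follows, none of which is read as particular to its list. The medians of the 52 were 0.09, 0.03 and -0.02. On day 11, WT had 12 higher and 20 lower, FE255del 15 and 19, and R219S 19 and 5, against shares over all genes of 21.0% and 19.7%, 22.6% and 19.6%, and 17.7% and 14.4%. Dll4, a Delta-type ligand that is nearly silent in EV, averaged 5.82 CPM in WT and 5.96 in FE255del on day 1, against 0.235 in EV, at log2 fold changes of 4.63 ± 0.29 and 4.67 ± 0.29. In R219S Dll4 averaged 0.158 CPM and did not pass the test (edgeR adjusted p = 0.23). Dlk2, a Delta-like protein, was lower in all 3 on day 1 (-1.31 ± 0.16, -1.33 ± 0.16 and -0.72 ± 0.16 for WT, FE255del and R219S) and higher in all 3 on day 11 (0.63 ± 0.16, 1.17 ± 0.15 and 0.52 ± 0.16).

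Of the 10 cleavage and maturation genes on day 1, WT had 6 higher and 2 lower, FE255del 3 and 1, and R219S 5 and 2. Psen2, a catalytic subunit of gamma-secretase, rose by 1.00 ± 0.08 in WT, 0.71 ± 0.08 in FE255del and, for R219S organoids, 0.69 ± 0.08. Adam10, the protease that makes the first cut after ligand binding, rose by 1.20 ± 0.05 in R219S, where it averaged 690.4 CPM, against 301 in EV. Furin, which cleaves the receptor during its maturation, fell in all 3, with log2 fold changes of -0.35 ± 0.04 in WT, -0.23 ± 0.04 in FE255del and -0.58 ± 0.04 in R219S. In the ligand ubiquitination list, Neurl1b, an E3 ligase, averaged 117 CPM in WT and 56.4 in FE255del, against 11.7 in EV, at log2 rises of 3.33 ± 0.12 and 2.27 ± 0.12. It was not called in R219S on day 1 (0.23 ± 0.12, edgeR adjusted p = 0.12) and was 0.60 ± 0.12 there on day 11. R219S was lower than WT on day 1, with log2 fold changes of -3.10 ± 0.12 for Neurl1b and -5.20 ± 0.30 for Dll4 (edgeR adjusted p = 4.2e-20 and 9.2e-17).

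Of the 14 nuclear complex genes on day 1, WT had 8 higher and 4 lower, FE255del 6 and 3, and R219S 5 and 4. Tle4, a corepressor that Hes proteins recruit, had the smallest p of the list in each, at 1.99 ± 0.09 in WT, 1.50 ± 0.08 in FE255del and 1.33 ± 0.08 in R219S. It was also higher on day 11 (1.29 ± 0.09, 0.99 ± 0.09 and 1.24 ± 0.09). Among the 8 tested negative regulators, 5 were lower in WT and in FE255del on day 1 and 4 in R219S, with 3, 1 and 0 higher. Dtx4, a Deltex E3 ligase, fell in all 3 (-0.49 ± 0.04, -0.81 ± 0.04 and -1.89 ± 0.04 in WT, FE255del and R219S), and Numbl, a relative of the Notch inhibitor Numb, rose in WT and FE255del (0.90 ± 0.10 and 1.14 ± 0.10). Of the 6 tested other targets, Ccnd1, a G1 cyclin, and Sox9, a progenitor transcription factor, fell in all 3 on day 1, with log2 fold changes of -1.02 ± 0.05 and -1.40 ± 0.06 in WT, -1.17 ± 0.05 and -0.85 ± 0.06 in FE255del and -0.57 ± 0.05 and -0.64 ± 0.06 in R219S. Hes6, a Hes family member that antagonizes Hes1, rose by 1.16 ± 0.06 in WT, 0.87 ± 0.06 in FE255del and 1.36 ± 0.06 in R219S. Of the 4 tested receptor glycosylation genes on day 1, WT had 1 higher and 2 lower, FE255del 2 and 1, and R219S 2 and 0. Lfng, whose enzyme modifies the receptor's sugars, fell in WT (-0.58 ± 0.06) and rose in FE255del (0.28 ± 0.06).

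Cell type markers differed on all 3 days. The 10 basal genes, among them Krt5, Krt14 and Trp63, summed to 7746 to 8300.0 CPM in WT, 7605 to 8000.0 in FE255del and 9568 to 10130.0 in R219S on day 0, against 10200.0 to 10430.0 in EV, and 7, 9 and 3 of them were lower. They summed to 3661 to 3807 CPM in WT, 2396 to 2566 in FE255del and 6302 to 6474 in R219S on day 1, against 10240.0 to 10890.0 in EV, and 10, 10 and 8 of them were lower. On day 11 they summed to 6353 to 7691 CPM in WT, 6729 to 6965 in FE255del and 14730.0 to 16500.0 in R219S, against 12530.0 to 13500.0 in EV, with 9 lower in WT and in FE255del and 7 higher in R219S. The 11 luminal genes summed to 3907 to 3965, 4961 to 5240.0 and 2758 to 2795 CPM in WT, FE255del and R219S on day 1, against 5411 to 5776 in EV. On day 0 their sums were 4941 to 5117, 5663 to 5727 and 5939 to 6074 CPM in that order, against 5738 to 5904 in EV. On day 11 they were 4352 to 4618, 4120 to 4492 and 3649 to 3731 CPM, against 3991 to 4195 in EV. All 6 genes of dividing cells were lower in WT and in FE255del on day 1 and 5 in R219S. On day 11 all 6 were higher in WT and in FE255del and 3 were lower in R219S, with sums of 931 to 1004 CPM in WT, 910.1 to 1094 in FE255del and 592 to 744 in R219S, against 717 to 802 in EV. Over all genes, 12.8%, 9.72% and 6.92% were lower in WT, FE255del and R219S on day 0. On day 11, 21.0%, 22.6% and 17.7% were higher and 19.7%, 19.6% and 14.4% lower, in the same order. The part of basal content or of division in the member differences was not tested.

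Among markers of cells from outside the epithelium, single genes reached the level of members while others, such as Col1a2, Cdh5 and Ptprc, were at or near 0. The 7 fibroblast genes summed to 107 to 153 CPM in R219S on day 11, against 18.6 to 32.3 in EV, mostly from Postn and Dcn, while Col1a2 had 0 counts. The 7 endothelial genes summed to 4.31 to 4.82 CPM in WT and 6.49 to 7.10 in FE255del on day 1, against 0.569 to 0.817 in EV, mostly from Pecam1, with Cdh5 at 0 in WT. The 7 immune genes summed to 56.8 to 74.2 CPM in WT and 45.4 to 53.0 in FE255del on day 1, against 4.57 to 4.93 in EV, with Csf1r alone at 63.6 CPM in WT, whereas Ptprc, which all leukocytes express, averaged 0.0251 CPM in WT and 0.0293 in EV. The 6 neuroendocrine genes summed to at most 0.731 CPM in any library. The 5 epithelial genes summed to 2413 to 2561, 2700.0 to 2759 and 2801 to 2916 CPM in WT, FE255del and R219S on day 1, against 3428 to 3496 in EV.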

How the data were processed

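RNA was measured in 36 libraries of mouse prostate organoids, 3 in each of 12 groups taken from the sample labels. Polyadenylated RNA was prepared with the TruSeq Stranded mRNA kit, per the labels' protocols. STAR 2.4.2a, featureCounts 1.4.3 and, as the build, mm10 are listed in the submitters' processing notes. The authors deposited 1 table of expected counts per library, with 45232 genes and no normalization, and 298311 values were not written as whole numbers, at most 3e-09 away from one, so the values were rounded. Of the values from 1 to 20, 69.7% were even, against 50.3% above 1000, so low values may count both mates of a pair, and the counting floors are then too low. No 2 replicates agreed within sampling noise (chi-square per degree of freedom 4.02 to 57.8).

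Symbols came from GENCODE M21 (44585 identifiers matched), and promoters from RefSeq. In edgeR 4.0.16 (R 4.3.3, limma 3.58.1), genes were filtered with filterByExpr, scaled by TMM (factors 0.938 to 1.08) and fitted with 12 group means over all libraries. The quasi-likelihood test was adjusted by the Benjamini-Hochberg method within each of 23 comparisons over 18176 genes. Levels in CPM were computed from the deposited counts. The fit was tested on simulated data. Alternatives were DESeq2 1.42.0, RLE and total-count scaling, no filter and a stricter one (a mean of 2 CPM and at least 1 CPM in 6 of the libraries), a fit of only the groups compared, a replicate block, and each library left out. The members and Foxa1 are named, with any gene of the pathway and marker lists, whose examples are those of the smallest p, and the genes with the highest Pearson r to a member (log2 CPM, prior count 3, mean of at least 2 CPM). The members and lists were chosen with earlier results of these data known.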

Additional observations from a re-analysis of the deposited data

Results flagged for a closer look

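The change since day 0 differed from that of EV organoids in 39 cases, each by an interaction term in edgeR's quasi-likelihood test with an adjusted p below 0.05, and that test of the difference is why they are listed. The values are log2 changes in the construct less those in EV, which all constructs share. By day 1 in WT, they were -1.50 for Notch1, -1.21 for Notch3, -0.94 for Jag2, -1.33 for Dll1 and -1.54 for Nrarp. In FE255del by day 1, the receptors had -0.86 for Notch1, -0.37 for Notch2 and -0.37 for Notch3. Its ligands had -0.45 for Jag1, -0.81 for Jag2 and -0.85 for Dll1, and its targets -0.17 for Hes1 and -1.13 for Nrarp. R219S by day 1 had -1.09 for Notch1, -0.62 for Notch3, -0.42 for Jag2, -0.40 for Dll1 and -1.33 for Nrarp, with positive values of 0.48 for Jag1 and 0.67 for Hes1.

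By day 11 in WT, the lower members were Notch1 (-0.73), Notch3 (-0.53), Jag1 (-0.31), Jag2 (-0.25), Dll1 (-0.41) and Nrarp (-0.53), and the higher ones Hes1 (0.17) and Hey1 (1.26). In FE255del the lower ones were Notch1 (-0.55), Jag1 (-0.36) and Nrarp (-0.51), and the higher ones Notch2 (0.44), Hes1 (0.39) and Hey1 (1.38). In R219S, Notch1 was lower (-0.28), and Notch2 (0.35), Jag1 (1.17), Jag2 (0.32) and Hes1 (0.85) were higher.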

How the results depend on the processing

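Of 207 member differences, 139 were called, 119 of them under every alternative run. Of the 68 not called, 50 were called under none, and the direction reversed in 0 of the 207. Single comparisons called from 260 (EV day 1 against EV day 0) to 10994 (WT against EV on day 1) of all 18176 genes. The member totals are therefore not read as particular to the members. Over all genes, EV day 1 against EV day 0 had 260 calls, with 393 by DESeq2, 671 with only the groups compared, 171 under the stricter filter and 62 to 180 when 1 library was left out. Leaving out 1 library gave 2490 to 3486 calls for FE255del against EV on day 0 (3776 with all) and 2091 to 3512 for R219S (3654 with all), lowest without EV day 0 replicate 2 in both. With only the groups compared, FE255del against WT on day 11 had 1722 calls (3213 with all groups) and R219S against EV on day 11 had 3813 (5833). Members called in EV day 1 against day 0 numbered 1, with 2 when only the groups compared were fitted, 0 under the stricter filter and 0 to 1 with a library left out. FE255del against EV on day 0 had 3, with 7 when only the groups compared were fitted and 6 under the stricter filter and under total-count scaling. Over all genes these settings gave 3776, 4974, 3462 (of 11799 tested) and 3869 calls, in that order. WT against EV on day 0 had 3, with 6 when only the groups compared were fitted. The change of R219S by day 11 had 5, with 3 under no filter and 3 to 5 with a library left out (3 without EV day 0 replicate 1). The cause was not tested. Same-numbered libraries did not as a rule deviate together (correlations of -0.281 to 0.342, with 31 of 198 over 0.1). Of 36 libraries, 16 were closest to their own replicate number. Some pairs did deviate together, such as replicate 2 of R219S on day 0 and of WT on day 1 (0.342). A shared origin of such pairs was not tested. The replicate block lost 0 member calls and gained 2, Hey1 in the change of WT by day 1 (-0.66, edgeR adjusted p = 0.041) and Nrarp in R219S against WT on day 0 (0.15, 0.04). Depth limits Heyl and, less so, Hey1.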
